A study of Mus musculus with 8 samples.

Results

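Open chromatin was compared between 2 libraries that carry a serine-to-alanine mutant of the chromatin protein DEK and the 2 libraries of the same cohort that do not, 4 of the 8 libraries in the series. On one side stood 4S-A 1 and 4S-A 2, labelled Dek-Ser306A/Ser308A/Ser311A/Ser312A, in which 4 serines of DEK are changed to alanine. On the other side stood FL 3, labelled Dek+/+, and KO 3, labelled Dekfl/fl;Tie2-Cre, which form the non-4S-A side. They share only the absence of the serine change: FL 3 is wild type for Dek, while KO 3 is a conditional knockout whose Cre is driven by the Tie2 promoter, which is active in endothelial and blood-forming cells. All 4 samples were granulocyte-macrophage progenitors sorted from mice with leukemia driven by the fusion gene MLL-AF9 (L-GMPs), with about 5000 cells per reaction and 13 to 16 PCR cycles. The labels give neither mouse ages nor whether the 4S-A libraries came from separate mice or leukemias, so a difference between leukemias cannot be told apart from the serine change. The other 4 libraries (FL 1, FL 2, KO 1 and KO 2, the Mx1-Cre set, labelled Dekfl/fl with and without Mx1-Cre) played no part in choosing regions and serve as an outside reading.

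ATAC-seq uses a transposase to cut DNA that is not covered by nucleosomes, so that promoters and enhancers in use appear as peaks of reads. DEK is an abundant nuclear protein that binds DNA and histones, and in human cells it is a substrate of the protein kinase CK2; alanine cannot carry a phosphate. MLL-AF9 keeps a set of developmental regulators active in myeloid progenitors, among them Hoxa9, Meis1 and their partner Pbx3, which maintain self-renewal in this leukemia.

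Of 124925 regions in which at least 1 of the 4 libraries held a peak, 9147 were held by both 4S-A libraries and by neither FL 3 nor KO 3, and 3959 were held by FL 3 and KO 3 and by neither 4S-A library. Another 67068 regions were held by all 4. In bulk samples like these, fewer cells with an open region and less opening per cell cannot be told apart. Promoters were few among the called regions, and the 4 shown here are those at which the clearest differences fell on a start site. Hoxa5, a homeobox regulator of the Hoxa cluster, had no promoter peak in either 4S-A library. Stra6, the membrane receptor that takes up vitamin A, had a promoter peak only in 4S-A. Speg, a muscle kinase, was the named promoter with the largest rise in rank in 4S-A, and Hook1, a linker between cargo and microtubules, the one with the largest fall; Hook1 was picked after its values were seen. Each run is the RefSeq window of 300 bases in GRCm38.p6 (mm10) from 250 before to 50 after the start, read 5′ to 3′ on the gene's strand, with CpG dinucleotides in capitals.
Hoxa5 (chr6:52204538-52204837, minus strand): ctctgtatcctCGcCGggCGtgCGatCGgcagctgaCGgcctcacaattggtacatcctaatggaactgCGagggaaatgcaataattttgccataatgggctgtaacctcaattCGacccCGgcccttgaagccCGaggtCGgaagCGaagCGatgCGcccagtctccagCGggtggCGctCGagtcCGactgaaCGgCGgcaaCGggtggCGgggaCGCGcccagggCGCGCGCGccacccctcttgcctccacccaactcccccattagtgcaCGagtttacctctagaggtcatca
Stra6 (chr9:58128838-58129137, plus strand): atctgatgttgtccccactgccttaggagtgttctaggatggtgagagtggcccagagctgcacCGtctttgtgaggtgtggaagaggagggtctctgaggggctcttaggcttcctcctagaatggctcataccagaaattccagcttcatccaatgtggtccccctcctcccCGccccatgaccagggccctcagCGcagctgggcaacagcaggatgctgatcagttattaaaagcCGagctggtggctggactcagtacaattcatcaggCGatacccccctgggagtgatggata
Speg (chr1:75375047-75375346, plus strand): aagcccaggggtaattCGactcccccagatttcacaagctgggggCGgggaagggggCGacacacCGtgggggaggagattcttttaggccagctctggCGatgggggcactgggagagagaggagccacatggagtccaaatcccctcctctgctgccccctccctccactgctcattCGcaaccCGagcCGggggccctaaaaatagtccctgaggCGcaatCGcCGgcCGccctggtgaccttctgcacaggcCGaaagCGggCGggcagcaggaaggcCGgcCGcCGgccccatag
Hook1 (chr4:95967129-95967428, plus strand): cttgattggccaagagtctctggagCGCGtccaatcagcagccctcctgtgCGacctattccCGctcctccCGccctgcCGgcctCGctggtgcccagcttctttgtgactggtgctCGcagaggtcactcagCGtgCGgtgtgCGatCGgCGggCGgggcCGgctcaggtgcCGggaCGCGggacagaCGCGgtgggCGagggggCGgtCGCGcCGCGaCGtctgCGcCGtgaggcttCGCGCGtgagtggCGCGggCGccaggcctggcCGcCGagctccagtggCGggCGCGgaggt

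The Hoxa5 region (chr6:52204079-52204805) overlapped 268 bases of that window and lay over the first part of the gene. Its window held 29 CpG and 61.7% GC, against 5 CpG and 55.7% GC at Stra6, 18 CpG and 65.7% GC at Speg and 40 CpG and 72.7% GC at Hook1. The strength of a peak is given below as its percentile, the place of its −log10 q within its own list, with 100 the strongest. At Hoxa5 there was no peak in 4S-A 1 or 4S-A 2, against the 84.8 percentile in FL 3 and the 43.2 percentile in KO 3. In the Mx1-Cre set the same region was held by FL 1 and FL 2, at the 72.3 and 79.0 percentiles, and by neither KO 1 nor KO 2. So the Hoxa5 promoter had a peak in all 3 libraries labelled FL, in 1 of the 3 labelled KO, and in neither 4S-A library. At Stra6 (chr9:58128376-58129779) the peak stood at the 92.9 percentile in 4S-A 1 and the 93.6 percentile in 4S-A 2, with none in FL 3 or KO 3. Among the other 4 libraries FL 1 alone held it, at the 14.9 percentile.

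The 4S-A lists were longer, which bears on every count of presence. On chromosomes 1 to 19 and X, 4S-A 1 held 104605 peaks and 4S-A 2 held 94725, against 91586 in FL 3 and 93041 in KO 3. The means were 99665 ± 6986 in 4S-A and 92314 ± 1029 in the non-4S-A libraries (SD, n = 2 each). Both 4S-A lists exceeded both others, with an exact two-sided permutation p of 1 in 3, the smallest that 2 against 2 allows. The spread between these libraries may be technical. The 4 libraries of the Mx1-Cre set held between 51510 and 74026 peaks. Read depth is unknown, and list length is the only measure of it in the lists. The promoters of 7 of the 8 progenitor markers (Kit, Cd34, Fcgr3, Mpo, Elane, Cebpa and Meis1) were held by all 4 libraries, and the window of the eighth, Hoxa9, by none. No library held a promoter of the 4 T and NK cell markers, of the B cell markers Cd79a and Pax5 or of the erythroid Klf1. The 3 megakaryocyte markers had a promoter held in 3, 1, 3 and 3 cases in 4S-A 1, 4S-A 2, FL 3 and KO 3. Those of the mature neutrophil markers Ltf, Camp and Cxcr2 were held by all 4. So were those of the macrophage marker Mrc1 and the mast cell or basophil marker Mcpt8, while Cpa3 and Fcer1a, of the same cell type as Mcpt8, were held by none.

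Regions held only by 4S-A made up 10.8% of the 84399 regions that both 4S-A libraries held. Regions held only by FL 3 and KO 3 made up 5.16% of the 76665 that both of these held. Together they came to 13106. Pairing each 4S-A library with a non-4S-A one gives the level at which any 2 of these libraries agree against the other 2: 4S-A 1 and FL 3 against 4S-A 2 and KO 3 gave 2922 regions, and 4S-A 1 and KO 3 against 4S-A 2 and FL 3 gave 3197. Only 3 such pairings exist, so no test of the counts is given.

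With every list cut to the 91586 strongest peaks, the length of the shortest, 7339 regions were held only by 4S-A and 5384 only by the non-4S-A libraries. The other pairings then gave 2539 and 2646 regions. The share of one-sided regions on the 4S-A side was 57.7% at equal length and 69.8% in the deposited lists. The imbalance between directions was thus smaller at equal length, while the total stayed over the other pairings.

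**Figure D1:**
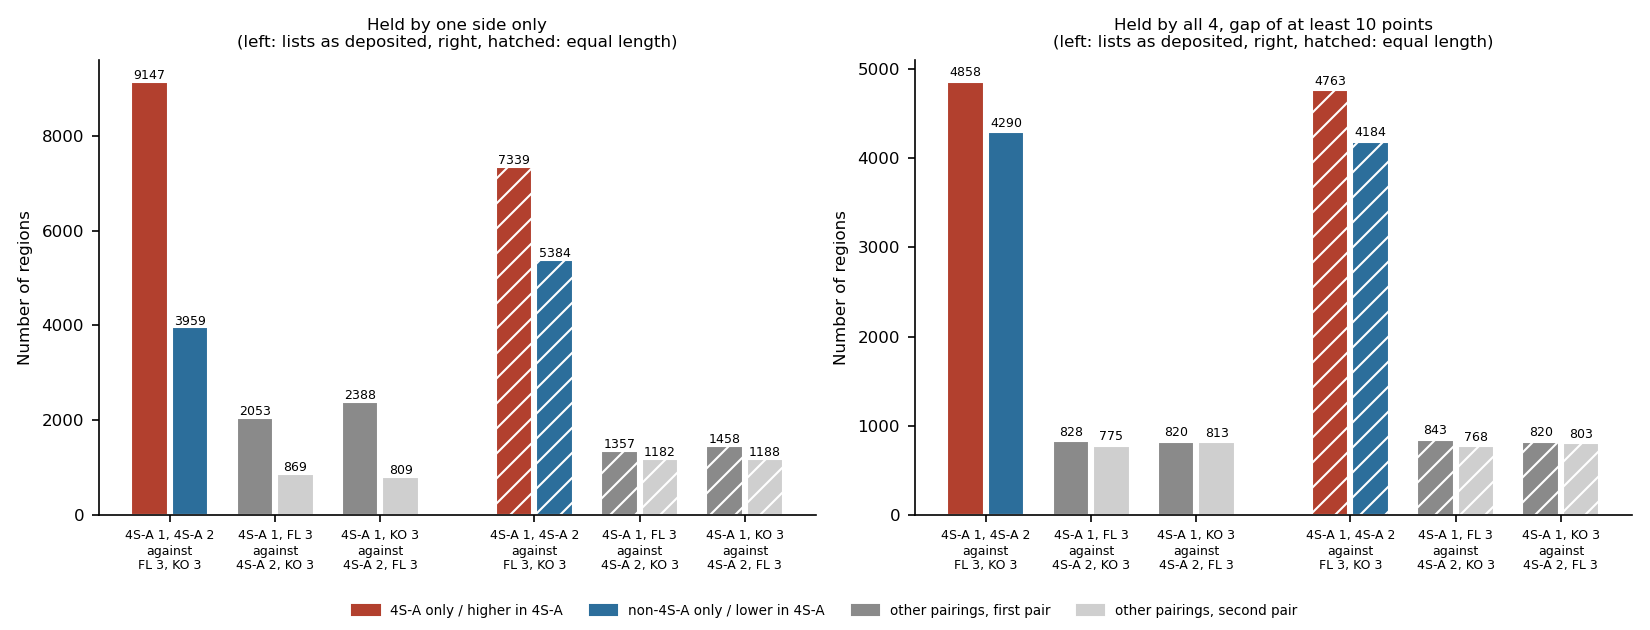
Number of regions (y axis) held by one side only (left panel) and held by all 4 with a gap of at least 10 percentile points (right panel), for the serine comparison (colors) and the other ways of pairing the 4 libraries (greys), in the deposited lists and, hatched, at equal length. The bars of the serine comparison, from 3959 to 9147 regions on the left and from 4184 to 4858 on the right, stand above every grey bar of their panel.

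Most one-sided regions were weak peaks. Their median strength, the mean percentile of the libraries that held them, was 27.2 for regions held only by 4S-A and 20.9 for those held only by the non-4S-A libraries, against 62.3 for regions held by all 4. Of regions both 4S-A libraries held below the 20 percentile of strength, 34.1% were held by no other library of the cohort, and above the 80 percentile 0.652% were. For FL 3 and KO 3 these shares were 25.1% and 0.0111%. Strong one-sided regions therefore lay almost all on the 4S-A side: 864 regions above the 60 percentile were held only by 4S-A, against 19 only by the non-4S-A libraries.

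The 12 strongest regions held only by 4S-A stood between the 88.4 and 96.0 percentiles on average. Of these, 10 were in no list of the Mx1-Cre set either, and 8 lay inside a gene. The strongest lay 28977 bp outside Ppp1r14c, which encodes an inhibitor of a protein phosphatase (chr10:3336697-3337366), with percentiles of 96.7 in 4S-A 1 and 95.2 in 4S-A 2. Next came a region 4002 bp outside the carboxylesterase gene Ces1f (chr8:93251869-93252480), at 95.7 and 93.6 in the same libraries. Their fold enrichment over local background, as the authors' lists give it, was 11.9 and 12.01 at Ppp1r14c and 17.9 and 15.5 at Ces1f. Regions inside Plxna4, Sema6a and Ephb1, genes of axon guidance, stood at 94.4 and 92.9, at 92.5 and 94.4, and at 91.8 and 93.5. Il10, a cytokine that dampens inflammation, had its region 16307 bp outside the gene (chr1:131003095-131003811), at 91.7 in 4S-A 1 and 92.1 in 4S-A 2. Dpp4, a cell surface protease that trims chemokines such as CXCL12, held one inside the gene (chr2:62333897-62334476), at 88.9 and 88.7. The other named regions were near the odorant receptor gene Olfr1254 and inside Hydin, a gene of motile cilia, Spock1, a matrix proteoglycan, and Pla2r1, a phospholipase receptor. In each of the 12 the percentiles of the 4S-A libraries lay within 5 points of each other.

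The 12 strongest regions held only by the non-4S-A libraries were weaker, between the 59.8 and 90.6 percentiles on average, and 9 of them were held by all 4 libraries of the Mx1-Cre set. The strongest lay inside Rasa2, a GTPase-activating protein that switches Ras off (chr9:96544046-96544574). It had no peak in 4S-A, against the 90.0 percentile in FL 3 and 91.2 in KO 3, and stood at 65.4, 67.2, 72.2 and 83.0 in FL 1, FL 2, KO 1 and KO 2. The absence of that peak in both 4S-A libraries thus stood against 6 of 6 libraries without the serine change. The region inside Cntnap2, a neuronal adhesion gene (chr6:45271440-45272038), was likewise held by 6 of 6, at 89.9 in FL 3, 79.3 in KO 3 and between 76.5 and 91.9 in the Mx1-Cre set. Rarb, a receptor for retinoic acid, lacked a peak inside the gene (chr14:16563855-16564314) in 4S-A, against 82.8 in FL 3 and 42.2 in KO 3. Hmgn3, a nucleosome-binding protein, and Vwa5a showed the same uneven pair, with 82.2 and 80.6 in FL 3 and 49.3 and 42.2 in KO 3. Il12a, which encodes a subunit of interleukin 12, had its region 73329 bp outside the gene, at 60.2 in FL 3 and 61.6 in KO 3. A region inside Snd1 was held by FL 3 and KO 3 at 81.2 and 70.3, and by no library of the Mx1-Cre set. Others were near or inside Sema6d, Atl2 and Vwc2l.

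**Figure D2:**
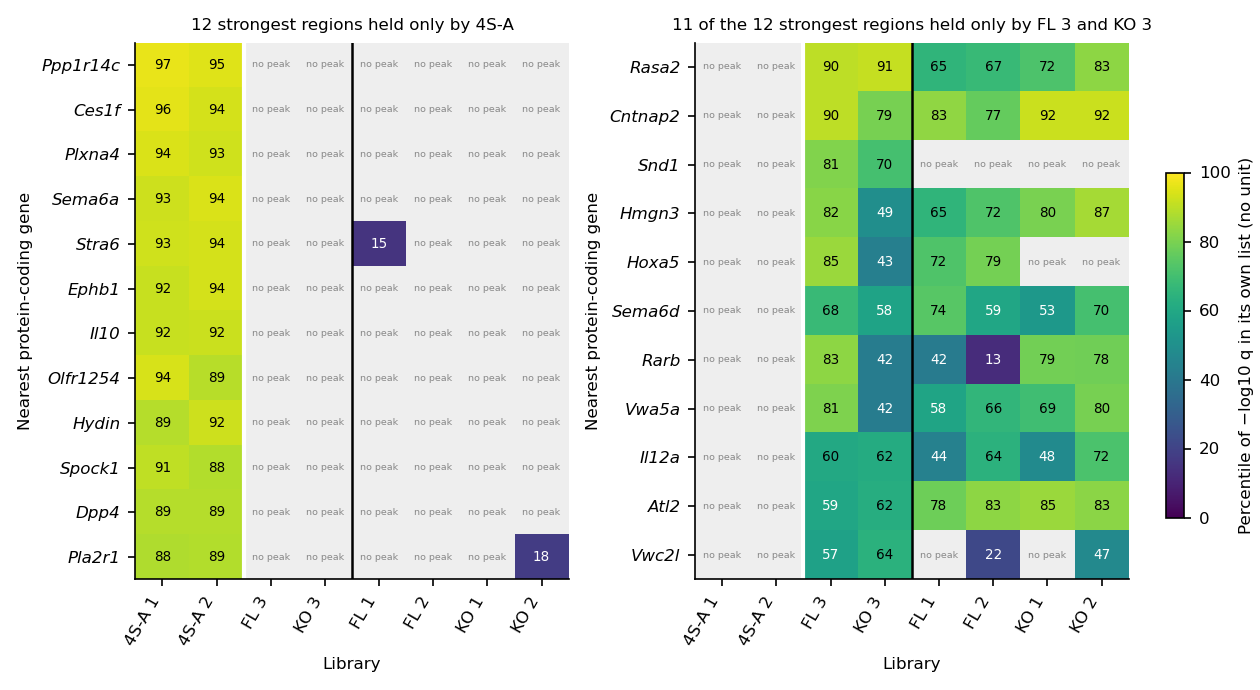
Percentile of −log10 q within each library's own list (color and number, 0 to 100) for the 12 strongest regions held only by 4S-A (left) and 11 of the 12 strongest held only by FL 3 and KO 3 (right), by nearest gene (rows) and library (columns); grey cells had no peak, and the black line sets off the Mx1-Cre set. On the left the Mx1-Cre set holds 2 peaks, at Stra6 and Pla2r1, and on the right it holds the region in all 4 libraries for 8 of the 11 genes plotted.

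The Mx1-Cre set, which the choice of regions did not use, was then read over all one-sided regions. Of regions held only by 4S-A, 2.15% had a peak in FL 1, 2.83% in FL 2, 3.30% in KO 1 and 6.43% in KO 2. Of regions held only by FL 3 and KO 3, these shares were 21.6%, 24.98%, 29.4% and 47.1%. A peak in at least 1 of the 4 was found for 10.0% of the 9147 regions (exact Clopper-Pearson 95% interval 9.42% to 10.7%) and for 54.6% of the 3959 (52.99% to 56.1%). The intervals cover counting error only. All 4 libraries held 35 of the 9147 regions and 466 of the 3959. Regions held by a mixed pair lay between, with 32.2% for 4S-A 1 and FL 3, 22.0% for 4S-A 1 and KO 3, 31.4% for 4S-A 2 and FL 3 and 18.4% for 4S-A 2 and KO 3.

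The contrast was present within each class of strength. The share found in the Mx1-Cre set was near 10% in each strength class of the regions held only by 4S-A, between 9.46% and 10.2%. It was 43.6% in the weakest class of the regions held only by FL 3 and KO 3 and 89.5% in the strongest, which holds 19 regions. With all 8 lists cut to the shortest of the 8, 51510 peaks, the shares were 24.1% for the 4S-A side and 78.1% for the other. Setting 4S-A against KO 3 alone (without FL 3) gave 17.6% and 32.0%, and against FL 3 alone (without KO 3) 16.0% and 39.2%. How far mouse strain, cohort or preparation sets these shares was not tested.

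**Figure D3:**
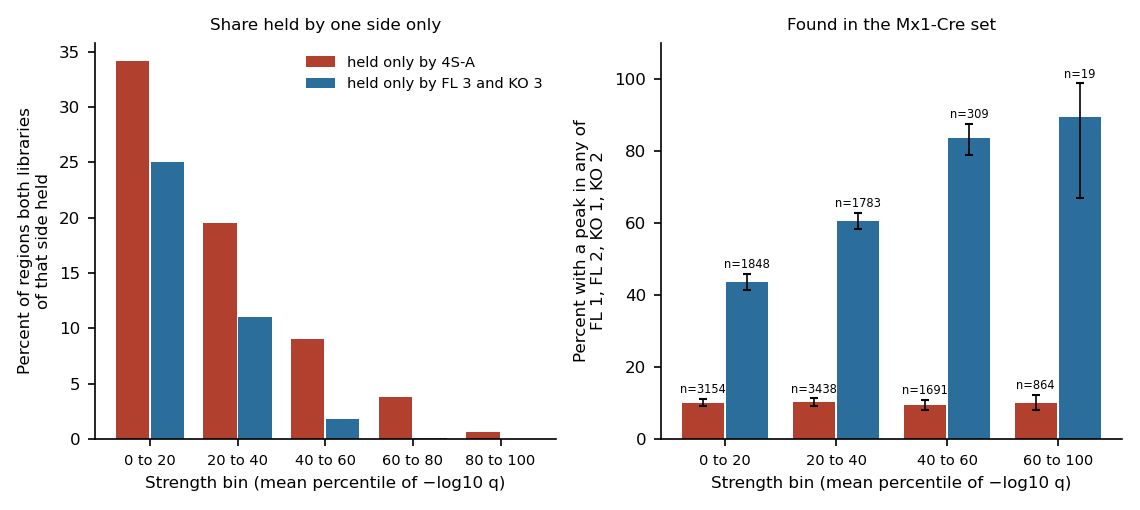
Left, percent of the regions that both libraries of a side held which the other side lacked, by strength class on the x axis; right, percent of one-sided regions with a peak in at least 1 library of the Mx1-Cre set, with exact 95% intervals and the number of regions. On the left the 4S-A bars fall with strength to 0.652% and the others to 0.0111%, and on the right the 4S-A bars stay near 10% while the others reach 89.5%.

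In the 67068 regions held by all 4, each library's peaks were ranked among exactly these regions, so that every list entered with the same regions. A region was called where the lowest rank of one side exceeded the highest of the other by at least 10 percentile points. Of these regions 4858 ranked higher in 4S-A (7.24%) and 4290 ranked lower (6.4%). The other pairings gave 1603 and 1633 regions in both directions together, against 9148. A gap of at least 20 points was reached by 2108 higher and 1285 lower regions, against at most 77 in any direction of the other pairings. A gap of at least 50 points was reached by 179 higher and 21 lower regions and by none in the other pairings. At the threshold, a region near Mmp23 with ranks of 45.6 and 61.1 in 4S-A and 35.6 and 3.10 in FL 3 and KO 3 was just inside. One near Drosha with 47.9 and 61.2 against 37.9 and 34.1 was just outside.

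Over the same regions the ranks of 4S-A 1 and 4S-A 2 had a Pearson correlation of 0.948, those of FL 3 and KO 3 one of 0.895, and the 4 mixed pairs between 0.838 and 0.863. Regions are not independent replicates, and they share promoter content and peak width, so these values are a description. KO 3 lay nearer the 4S-A libraries (0.863 and 0.859) than FL 3 did (0.843 and 0.838). In the same direction, 4679 regions were held by both 4S-A libraries and KO 3 but not FL 3, against 3505 held by both 4S-A libraries and FL 3 but not KO 3.

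The largest rise in rank was at a region 18813 bp outside Dbx1, a homeobox gene of the developing nervous system (chr7:49655369-49656080). Its ranks were 91.1 and 88.4 in 4S-A 1 and 4S-A 2, against 6.45 in FL 3 and 1.78 in KO 3, and no library of the Mx1-Cre set held it. The Speg promoter shown above ranked 77.6 and 85.4 in 4S-A, against 3.07 and 1.08 in FL 3 and KO 3. Others of the 10 largest rises were near or inside Utp14b, Cracd, Lhpp, Cidea, Zfyve9 and Samd12, with gaps between 73.8 and 79.2 points. Of these 10 regions, 7 were in no list of the Mx1-Cre set.

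The largest fall was inside Fbxo27, which encodes a substrate receptor of a ubiquitin ligase and whose start lies 605 bp away (chr7:28693349-28694086). It ranked 7.14 and 1.07 in 4S-A 1 and 4S-A 2, against 82.7 in FL 3 and 89.5 in KO 3. Tox, a nuclear factor of T cell development, had a region inside the gene (chr4:6924497-6925340) that ranked 10.9 and 7.65 in 4S-A and 89.9 and 72.4 in FL 3 and KO 3. Cyld, a deubiquitinase that restrains NF-κB, ranked 2.69 and 3.96 in 4S-A at 19483 bp outside the gene, against 58.1 in FL 3 and 68.1 in KO 3. Rapgef1, an exchange factor for the small GTPase Rap1, ranked 1.81 and 2.57 in 4S-A, against 67.2 and 56.6, and Hivep2, a zinc finger factor, 14.5 and 3.96, against 79.2 and 69.0. Others of the 10 largest falls were at Fnbp1l, Slc4a4, Zfp536 and Macc1. Of these 10 regions, 8 were held by all 4 libraries of the Mx1-Cre set and 2 by 3 of them. The Hook1 promoter shown above ranked 28.4 and 40.5 in 4S-A, against 95.6 in FL 3 and 91.6 in KO 3, and stood above the 97 percentile in all 4 libraries of the Mx1-Cre set.

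All 8 libraries held 33324 regions, of which 942 were called higher in 4S-A and 2211 lower. Ranked among the 33324, the 942 had medians of 42.7 and 43.5 in 4S-A and 12.1 and 14.0 in FL 3 and KO 3. Their medians in the Mx1-Cre set were 19.7 in FL 1, 20.7 in FL 2, 20.8 in KO 1 and 22.2 in KO 2. The 2211 had medians of 8.92 and 8.68 in 4S-A, 28.9 and 24.6 in FL 3 and KO 3, and 33.2, 34.0, 35.0 and 38.4 in the Mx1-Cre set in the same order. The mean rank over the Mx1-Cre set was nearer the non-4S-A side for 64.3% of the 942 and 80.6% of the 2211. Among the 30171 regions not called, this share was 52.8%. In the other pairings each side holds a 4S-A library, so which side is counted is arbitrary. In their 4 classes the mean rank was nearer the side with 4S-A 2 for 32.0% to 71.2% of regions. The share of the lower regions lay above that range, and the share of the higher regions lay within it.

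**Figure D4:**
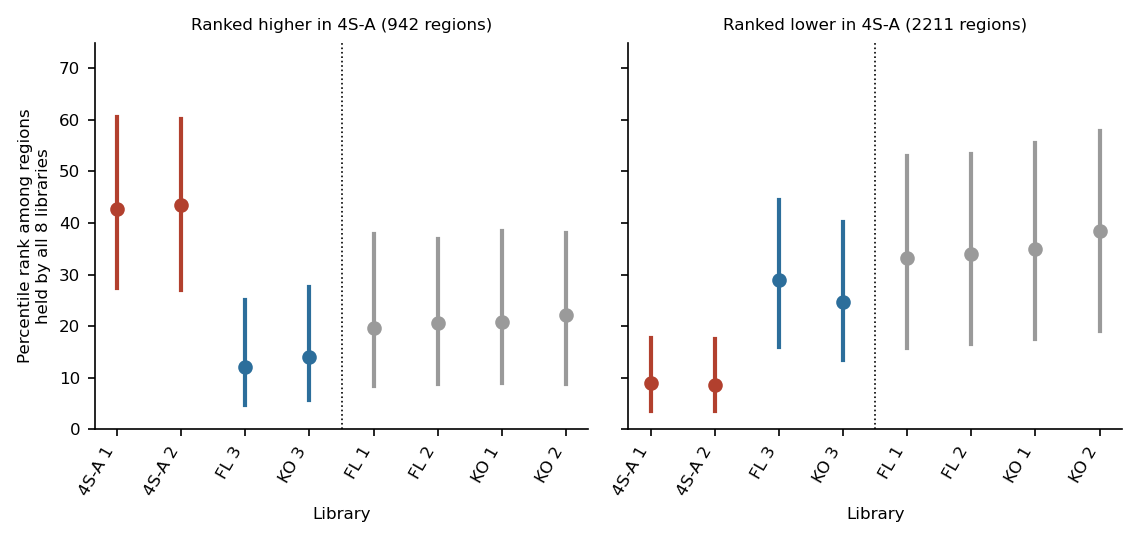
Median (point) and interquartile range (bar) of percentile ranks among the 33324 regions held by all 8 libraries, for regions called higher (left) and lower (right) in 4S-A; red, 4S-A; blue, the non-4S-A libraries of the cohort; grey, the Mx1-Cre set. The red and blue points differ by the choice of regions, while the grey points, from 19.7 to 22.2 on the left and from 33.2 to 38.4 on the right, were not used in it.

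The called regions lay away from gene ends. Of regions held only by 4S-A, 4.68% (4.26% to 5.13%) had a summit no more than 1 kb from a protein-coding gene's start or end, and of those held only by FL 3 and KO 3, 5.35% (4.67% to 6.10%), against 12.5% of all regions. For regions ranked higher and lower in 4S-A the shares were 6.69% and 6.69%, against 18.4% of regions held by all 4. The one-sided regions of the mixed pairs had 5.75% to 7.71% at gene ends, and regions held by both 4S-A libraries below the 20 percentile of strength 7.37%. Regions over 100 kb from any protein-coding gene made up 11.2% of those held only by 4S-A and 6.90% of those held only by FL 3 and KO 3, against 6.01% of all. Whether a region inside a gene falls in an exon or an intron was not read here.

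Promoter windows overlapped 221 of the regions held only by 4S-A (2.42%) and 83 of those held only by FL 3 and KO 3 (2.1%). They overlapped 277 of the regions ranked higher in 4S-A (5.7%) and 180 of those ranked lower (4.2%). Among all regions the share was 9.43%. It was 13% of the regions both 4S-A libraries held and 14% of those FL 3 and KO 3 both held. Among regions held by all 4 libraries it was 15.7%. Beside Stra6, the strongest promoters held only by 4S-A that have an established gene name were those of Ankef1, Zfp345, Tceal8 and Xlr, and beside Hoxa5 those held only by FL 3 and KO 3 were Irx2, a homeobox gene, and Stard10. The windows of the 4 classes had median GC contents of 53.5%, 56.7%, 56.7% and 54.7% in that order, against 61.3% for windows held by all 4 libraries and 53% for all 32585 windows.

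In all, 11 short motifs were looked for on both strands of these windows, and the match rates are descriptions of sequence only. The RUNX core TGTGGT was in 25.4% of the 213 windows ranked lower in 4S-A and in 14.9% of the 323 ranked higher, against 12.9% of windows held by all 4 and 16.6% of all windows. The AP-1 site TGANTCA was in 13.1% of the 244 windows held only by 4S-A and in 5.26% of the 95 held only by FL 3 and KO 3, against 4.82% of windows held by all 4 and 7.85% of all windows. The HOX-PBX sequence TGATTNAT was in 4.51% and 5.26% of these 2 sets and in 1.17% of windows held by all 4, and in 3.24% of all windows. The ETS site CCGGAAG was in 4.92% and 6.32%, against 17.6% of windows held by all 4 and 8.92% of all windows. The SP/KLF box GGGCGG, which itself contains a CpG, was in 35.2% and 51.6%, against 64.2% of windows held by all 4 and 35.9% of all windows. RUNX was in 15.2% and 13.7% of the same sets. In windows ranked higher and lower, AP-1 was in 10.2% and 7.98% and HOX-PBX in 3.10% and 0.939%. ETS was there in 8.05% and 3.76%, and SP/KLF in 50.5% and 33.3%. The C/EBP site TTGCNNAA was in 13.9%, 10.5%, 12.7% and 12.2% of the 4 classes, in the order given for GC. It was in 8.37% of windows held by all 4 and 10.9% of all windows. The AP-1 and HOX-PBX shares of 5.26% are 5 windows each. Of the motifs searched, the Hoxa5 window above held only the NF-Y box CCAAT. The Stra6 window matched RUNX, NF-Y and SP/KLF, the Speg window SP/KLF, and the Hook1 window NF-Y and SP/KLF. CCAAT was in 37.6% of all windows.

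Some microRNA genes fell in called regions, and their share of all microRNA genes was not counted. One region ranked lower in 4S-A (chr11:75172994-75173827) covered the hairpins of Mir132 and Mir212, with ranks of 53.05 and 56.9 in 4S-A 1 and 4S-A 2, against 68.8 in FL 3 and 72.7 in KO 3, and all 4 libraries of the Mx1-Cre set held it. The 2 hairpins are neighbours and their 3′ products share a seed. A region held only by 4S-A covered Mir34b (chr9:51103353-51104075), a member of a microRNA family that p53 activates, at the 36.5 percentile in 4S-A 1 and 26.5 in 4S-A 2. RefSeq mature sequences are given with the seed, bases 2 to 8, in capitals.
mmu-miR-132-3p: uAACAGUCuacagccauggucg
mmu-miR-212-3p: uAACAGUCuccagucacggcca
mmu-miR-34b-5p: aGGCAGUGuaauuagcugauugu
The hairpins Mir5103, Mir7011, Mir3095, Mir138-2 and Mir3086 lay in regions that ranked higher in 4S-A. Peaks at a hairpin do not show whether its RNA is made.

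Peak lists do not show the 4 serine changes themselves, so the labels could not be checked at Dek. The Dek promoter (chr13:47104867-47106804) was held by all 4 libraries, with ranks of 83.3 and 82.7 in 4S-A and 75.7 and 79.8 in FL 3 and KO 3, below the gap of 10 points. A region inside the gene (chr13:47096681-47097135) was held only by 4S-A, at the 35.0 and 33.5 percentiles. In the 1 Mb window that holds Dek, 5 of the 36 regions that both 4S-A libraries held were held only by them. The share was 12.7% on chromosome 13 and 10.8% over all regions. Of the 31 regions in that window that FL 3 and KO 3 both held, 1 was held only by them.

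The regulators of the MLL-AF9 program did not move as one. Hoxa9 had 3 regions, each held by all 4 libraries and none called, with a median difference in rank of -4.86 (4S-A minus non-4S-A). Meis1 had 27, 26, 26 and 21 regions in 4S-A 1, 4S-A 2, FL 3 and KO 3, of which 15 were shared and none called, 4 were held only by 4S-A and 1 only by the non-4S-A libraries. Its promoter (chr11:19018547-19020033) ranked 76.7 and 75.6 in 4S-A and 84.3 and 79.5 in FL 3 and KO 3. Pbx3 had 12 and 9 regions in 4S-A, against 11 in FL 3 and 21 in KO 3. Of its shared regions, 1 inside the gene (chr2:34249214-34250411) ranked higher in 4S-A, at 41.6 and 57.1 against 25.1 and 27.2. The other called regions, 2 outside the gene, ranked lower: chr2:34076135-34076924 at 35.8 and 36.6 in 4S-A against 61.1 and 53.2, and chr2:34162299-34162991 at 18.5 and 14.2 against 29.4 and 29.8. The Pbx3 region at the gene's start, with its summit 752 bp outside (chr2:34371079-34373416), stood at 97.6 and 96.5 in 4S-A and 98.4 and 96.2 in FL 3 and KO 3.

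Mecom, a stem cell regulator and MLL-AF9 target, had 13 and 12 regions in 4S-A, against 42 in FL 3 and 7 in KO 3, so FL 3 stood alone and the 4S-A libraries sat beside KO 3. A region 5440 bp outside Mecom (chr3:30514439-30515409) ranked 5.89 and 10.3 in 4S-A, against 72.8 in FL 3 and 35.3 in KO 3. Myc had 13 and 11 regions in 4S-A and 11 and 10 in FL 3 and KO 3, with 2 held only by 4S-A, 1 only by the non-4S-A libraries and no shared one called. Its median difference in rank was -6.91. All 4 regions of Tek, the receptor gene whose promoter drives Tie2-Cre, were held only by 4S-A, at percentiles between 0.544 and 27.3. One of them was the Tek promoter (chr4:94738862-94739589), at 13.2 in 4S-A 1 and 24.1 in 4S-A 2. Mx1, a pseudogene in this annotation, had 1 region, held by 4S-A 2, FL 3 and KO 3 at 31.7, 70.5 and 79.96.

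The regions of 18 gene lists were set beside all regions within 100 kb of a gene, of which 10.2% were held only by 4S-A among those both 4S-A libraries held, and 5.05% only by FL 3 and KO 3 among those both of these held. Of the shared regions near a gene, 6.99% ranked higher in 4S-A and 6.31% lower, and the median difference in rank was -0.41. The lists are described by their counts, and no list was tested. At equal list length, 9.27% of all regions both 4S-A libraries held were held only by them, whatever the distance to a gene. For FL 3 and KO 3 this share was 7.06%. Shares over all regions within 20 kb of a gene are not given here. Endothelial and stromal genes had 28 of 150 regions held only by 4S-A, or 18.7% (12.8% to 25.8%), and 3.70% held only by the non-4S-A side. This was the largest 4S-A share in the deposited lists, but at equal list length it was 13.2%, below the 16.9% of retinoid genes, and the share of the other side was 7.48%. With the nearest gene within 20 kb the shares were 20.2% and 0%. Lepr, the leptin receptor of marrow stroma, had such a region 8979 bp outside the gene at percentiles of 72.0 and 69.4, and Cdh5, the cadherin of endothelial junctions, one 61898 bp outside at 62.8 and 67.7. Cxcl12, the niche chemokine, had regions of both kinds, one held only by 4S-A at 30.0 and 40.1 and one held only by FL 3 and KO 3 at 27.7 and 20.6. In the other direction a region inside Eng, an endothelial receptor of the TGF-β family (chr2:32654778-32655516), ranked 0.655 and 0.0231 in 4S-A, against 45.9 in FL 3 and 48.5 in KO 3. Of the 4 endothelial or stromal markers, 2 were in the promoter table: Tek was held in both 4S-A libraries and in neither FL 3 nor KO 3, and Lepr in none. How far other cells in the sort contribute was not tested.

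**Figure D5:**
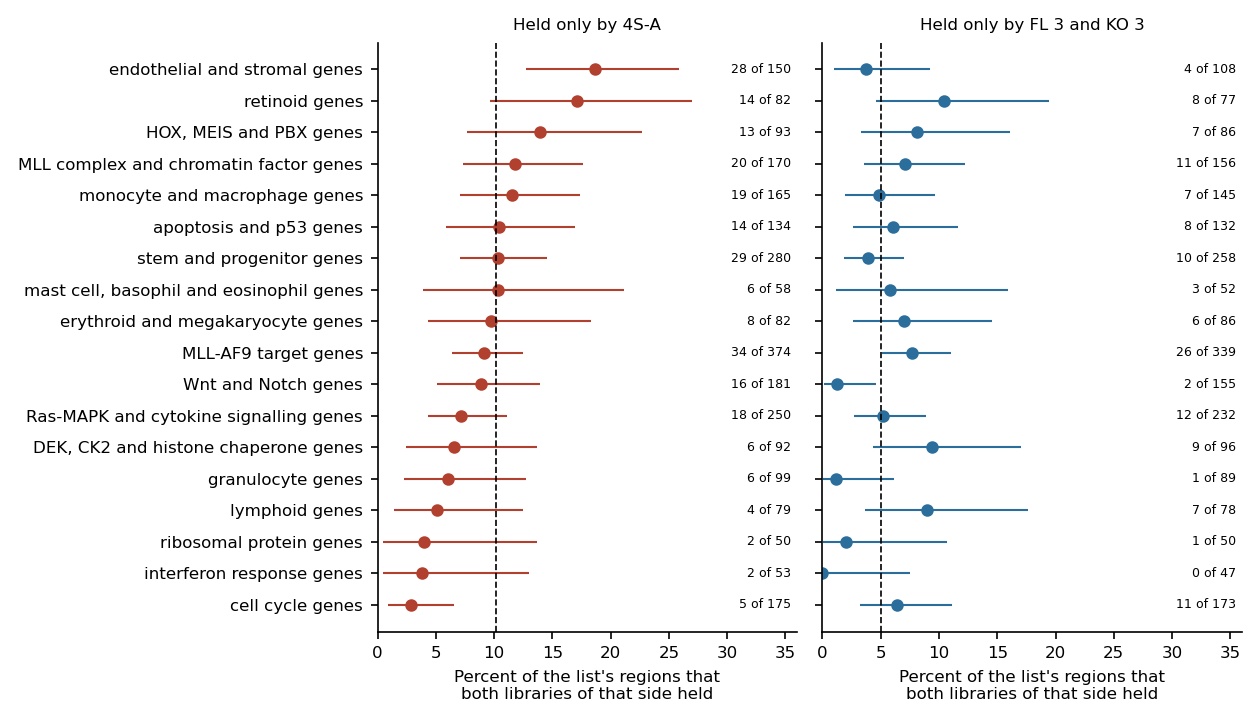
Percent of each gene list's regions (points, with exact 95% intervals, rows) held only by 4S-A (left) and only by FL 3 and KO 3 (right), with counts at the right edge and the share over all regions as a dashed line (10.2% and 5.05%). In these deposited lists endothelial and stromal genes lie farthest to the right on the left panel, with 28 of 150 regions, and cell cycle genes farthest to the left, with 5 of 175; at equal list length retinoid genes (16.9%) and lymphoid genes (2.74%) take these places.

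Retinoid genes had one-sided regions in both directions, 14 of 82 held only by 4S-A (17.1%) and 8 of 77 held only by FL 3 and KO 3 (10.4%). With the nearest gene within 20 kb, the share held only by 4S-A was 10.4%. The list contains both Stra6 and Rarb. On the 4S-A side it also counted Aldh1a3, an enzyme that makes retinoic acid, whose region 53493 bp outside the gene stood at 46.6 and 52.3. A second Aldh1a3 region, 22701 bp outside, ranked 62.9 and 63.4 in 4S-A and 8.51 and 8.67 in FL 3 and KO 3. On the other side stood the promoter of Cyp26a1, an enzyme that breaks retinoic acid down, at 23.5 in FL 3 and 20.8 in KO 3, and a region of the synthesizing enzyme Aldh1a2 at 39.3 and 37.6. Each of these genes also had a region held only by 4S-A, at 40.4 and 34.5 for Cyp26a1 and 43.7 and 30.3 for Aldh1a2. Within Rara, a region ranked 42.3 and 42.7 in 4S-A and 62.5 and 60.9 in FL 3 and KO 3.

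HOX, MEIS and PBX genes had 13 of 93 regions held only by 4S-A (14.0%) and 7 of 86 held only by the non-4S-A libraries (8.14%). At equal list length the share held only by 4S-A was 8.54%. The Hoxa5 promoter was among those of the non-4S-A side. MLL-AF9 targets had 34 of 374 (9.09%) and 26 of 339 (7.67%). Among the targets, Sox4, a progenitor transcription factor, had a region 52835 bp outside the gene (chr13:29006309-29006785) that ranked 88.6 and 81.3 in 4S-A and 22.2 and 12.2 in FL 3 and KO 3. Mef2c, a myeloid and lymphoid factor, had one inside the gene that ranked 23.7 and 24.0 in 4S-A and 55.1 and 63.7 in FL 3 and KO 3. Bcl2, which blocks apoptosis, ranked 27.1 and 35.3 in 4S-A, against 65.6 and 61.6, at one region and 41.4 and 38.4, against 11.5 and 7.41, at another.

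Stem and progenitor genes had 29 of 280 regions held only by 4S-A (10.4%) and 10 of 258 held only by the non-4S-A libraries (3.88%). The first share was 6.27% at equal list length. Of their 233 shared regions 11 ranked higher in 4S-A (4.72%) and 22 lower (9.44%), against 6.99% and 6.31% of all regions near a gene. A region inside Kit, the stem cell factor receptor, was held only by 4S-A at 74.7 and 62.7, and one 8411 bp outside Flt3, a cytokine receptor of progenitors, at 75.7 and 63.6. Another Kit region, 79768 bp outside the gene, ranked 10.4 and 6.27 in 4S-A, against 27.7 in FL 3 and 29.3 in KO 3. Regions inside Mllt3, Erg and Etv6 were held only by FL 3 and KO 3, at 50.9 and 35.8, 41.3 and 28.4, and 26.6 and 40.4. Runx1, a master regulator of blood formation, had a region 19500 bp outside the gene (chr16:92581585-92582847) that ranked 83.7 and 85.3 in 4S-A and 48.6 and 44.9 in FL 3 and KO 3. Another Runx1 region, inside the gene (chr16:92653839-92654255), ranked 7.23 and 17.2 in 4S-A and 45.3 and 43.4 in FL 3 and KO 3. The outer Runx1 region stood at the 10.1, 12.5, 61.1 and 60.7 percentiles in FL 1, FL 2, KO 1 and KO 2. It thus varied widely among libraries without the serine change. The inner one stood at 66.8, 82.7, 69.2 and 77.0 in the same libraries.

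Granulocyte genes had few one-sided regions, 6 of 99 held only by 4S-A (6.06%) and 1 of 89 only by the other side (1.12%, or 3.37% at equal list length), and a median difference in rank of -3.28. Of their 84 shared regions 2 ranked higher in 4S-A (2.38%) and 8 lower (9.52%), against 6.99% and 6.31% of all regions near a gene. Such a tilt was not particular to this list. MLL complex and chromatin factor genes had 4.48% higher and 11.2% lower, erythroid and megakaryocyte genes 2.99% and 8.96%, and lymphoid genes 6.35% and 9.52%. Other lists tilted the other way, among them HOX, MEIS and PBX genes (8.82% and 4.41%) and apoptosis and p53 genes (10.5% and 7.02%). S100a8, a calcium-binding protein of neutrophils, ranked 11.6 and 12.9 in 4S-A at a region 1852 bp outside the gene, against 39.3 in FL 3 and 64.9 in KO 3. Gfi1, a repressor needed for granulocytes, ranked 0.776 and 5.11 in 4S-A, against 47.4 and 22.6. The promoter of Mpo, the myeloperoxidase gene, went the other way, at 59.8 and 63.1 in 4S-A and 28.5 and 40.6 in FL 3 and KO 3, while a region inside Mpo ranked 34.2 and 20.4 in 4S-A and 62.5 and 50.1. In FL 1, FL 2, KO 1 and KO 2 the Mpo promoter stood at the 61.5, 46.6, 80.9 and 82.6 percentiles. The region inside Mpo stood at 57.2 in FL 1, 39.1 in FL 2 and 26.7 in KO 2, with no peak in KO 1. Erythroid and megakaryocyte genes had a median difference of -3.92. A region inside Zfpm1, which encodes a partner of GATA1, ranked lower, at 3.01 and 2.98 in 4S-A and 33.5 and 35.0 in FL 3 and KO 3.

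Monocyte and macrophage genes had 19 of 165 regions held only by 4S-A (11.52%), or 7.44% with the nearest gene within 20 kb. Held only by FL 3 and KO 3 were 7 of 145 (4.83%). Irf8, which directs progenitors toward monocytes, had a region 22607 bp outside the gene (chr8:120779103-120779500) at 87.1 and 84.8 in 4S-A and with no peak in the other 6 libraries. A region inside Irf8 (chr8:120751796-120752749) ranked 70.2 and 77.9 in 4S-A and 13.5 and 9.42 in FL 3 and KO 3, and no library of the Mx1-Cre set held it. Another, 16254 bp outside, ranked lower, at 5.82 and 9.08 in 4S-A and 21.6 and 34.2 in FL 3 and KO 3. Its percentiles were 21.8 and 21.4 in 4S-A 1 and 4S-A 2. In the Mx1-Cre set it stood at 8.44 in FL 1, 7.14 in FL 2, 52.2 in KO 1 and 52.0 in KO 2. Regions near Mrc1, a macrophage receptor, Zeb2 and Klf4, both transcription factors of monocytes, were held only by 4S-A at 83.1 and 86.3, 80.5 and 71.0, and 77.6 and 65.0. Other regions of Irf8 and Zeb2 were held only by FL 3 and KO 3, at 25.4 and 43.7 and at 25.8 and 17.9. So were regions of Ms4a3, at 25.9 and 32.2, and Ccr2, at 24.6 and 28.4.

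Cell cycle genes had 5 of 175 regions held only by 4S-A (2.86%, 0.934% to 6.54%) and 11 of 173 (6.36%, or 4.13% with the nearest gene within 20 kb) held only by the non-4S-A libraries. The first share was the lowest of the lists as deposited, but interferon response genes were lower with the nearest gene within 20 kb (3.77%, against 3.94% for cell cycle genes), and lymphoid genes at equal length (2.74%, against 3.01%). A region 52129 bp outside the cyclin gene Ccnd1 ranked 12.7 and 9.70 in 4S-A and 54.1 and 44.6 in FL 3 and KO 3, and one inside Ccnd3 ranked 10.1 and 15.8, against 45.5 and 46.3. Interferon response genes had 2 of 53 and 0 of 47 (4.26% for the second at equal length), and ribosomal protein genes 2 of 50 and 1 of 50. Wnt and Notch genes had 16 of 181 (8.84%) and 2 of 155 (1.29%, or 4.58% at equal length). Ras-MAPK and cytokine signalling genes had 18 of 250 (7.20%, or 4.29% at equal length) and 12 of 232 (5.17%). Beside the Rasa2 region without a 4S-A peak, another Rasa2 region (chr9:96577672-96578577) ranked 83.5 and 81.5 in 4S-A and 45.8 and 27.1 in FL 3 and KO 3. The genes of DEK itself, CK2 and histone chaperones had 6 of 92 (6.52%) and 9 of 96 (9.38%). In that list a region inside Supt16, a subunit of the histone chaperone FACT, ranked 58.9 and 52.8 in 4S-A and 10.6 and 8.67 in FL 3 and KO 3. The MLL complex and chromatin factor genes had 20 of 170 (11.8%) and 11 of 156 (7.05%). Their largest fall was 53117 bp outside Eed, a subunit of Polycomb repressive complex 2, at 8.01 and 10.3 in 4S-A and 70.5 and 58.1, and their largest rise inside Kdm1a, a histone demethylase, at 81.1 and 78.5 against 36.2 and 12.2. In the Mx1-Cre set the Eed region stood between the 86.5 and 95.5 percentiles. The Kdm1a region stood at 75.2 in FL 1 and 65.8 in FL 2, with no peak in KO 1 or KO 2.

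Apoptosis and p53 genes had 14 of 134 (10.4%) and 8 of 132 (6.06%). A region 17964 bp outside Fas, a death receptor, ranked 83.0 and 84.6 in 4S-A and 10.6 and 17.9 in FL 3 and KO 3, and no library of the Mx1-Cre set held it. One 10867 bp outside Mdm2, the ubiquitin ligase that degrades p53, ranked 61.7 and 58.2, against 8.97 and 11.4. In the Mx1-Cre set the Mdm2 region stood at the 73.2 percentile in FL 1, 77.6 in FL 2 and 43.2 in KO 2, with no peak in KO 1. Inside Trp53 a region ranked 50.9 and 32.1 in 4S-A and 76.6 and 70.7. Lymphoid genes had 4 of 79 (5.06%) and 7 of 78 (8.97%), and mast cell, basophil and eosinophil genes 6 of 58 (10.3%) and 3 of 52 (5.77%). A region 1924 bp outside Cpa3, a mast cell protease, ranked 1.81 and 1.5 in 4S-A and 45.5 and 40.2.

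Called regions were spread over the genome, with a few dense windows. The share held only by 4S-A lay between 8.58% on chromosome 17 and 14.5% on chromosome 18. The densest 1 Mb window (chr3:130000001-131000000) had 28 regions held only by 4S-A among 50 that both 4S-A libraries held and 1 held only by FL 3 and KO 3 among 19 that both of these held. Its most frequent nearest gene was Col25a1, a collagen gene. For the non-4S-A side the densest window (chr2:168000001-169000000) had 13 of 75, around Nfatc2, a calcium-responsive factor, and the potassium channel gene Kcng1. It held 29 when 4S-A was set against FL 3 alone. By gene, Rora, a nuclear receptor, had the most regions held only by 4S-A, 22 of 43, and Hivep2 the most held only by the non-4S-A libraries, 9 of 25.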

How the data were processed

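Peak lists from ATAC-seq, 1 per library, were analysed; peaks were called per sample. The mm10 build is named in the submitters' processing notes. These also list MACS2, featureCounts, Picard, Bowtie2 (2.2.9) and Trim Galore (0.4.4), and their roles and parameters are not given in the sources used here. In the deposited lists the authors give each peak a score, which in at least 99.94% of the peaks of every list equals 10 times the −log10 q cut to a whole number. The fold enrichment and the −log10 p and −log10 q values are those the authors deposited, and the last of these was ranked here. Read depth is unknown, and only the length of a list stands for it. Exact Clopper-Pearson 95% intervals cover counting error only.

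Peaks on chromosomes 1 to 19 and X of the 4 lists were merged into regions (overlap of at least 1 bp), and a region is held by a library with a peak in it. A shared region was called at a gap of at least 10 percentile points between the sides. No p-value per region is given, since peak lists hold no read counts. The members and lists were chosen with earlier results of these data known. Named regions are the 12 strongest held by one side only, the 10 with the largest gaps in each direction, and up to 4 per gene list and call, besides a set of genes described whatever their values; a few of the named genes are not reported here. The nearest gene within 100 kb came from a GRCm38.p6 table of 21631 protein-coding genes, and 395 of 398 list entries matched. Promoter windows, 250 bases before to 50 after the start, and microRNAs came from RefSeq tables of that build. The steps were tested on simulated data. Python 3.11.15, numpy 2.4.6, pandas 2.3.3, scipy 1.17.1 and matplotlib 3.10.9 were used. Alternatives were equal list length, summit windows, other thresholds, other ranks and leaving out each library.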

Additional observations from a re-analysis of the deposited data

How the results depend on the processing

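No paired analysis was possible because the 4S-A libraries are numbered 1 and 2 and both non-4S-A libraries 3, so the sides share no number. No single result changed direction, but the balance between regions ranked higher and lower did. Of the one-sided regions, 1247 held only by 4S-A and 41 held only by FL 3 and KO 3 stood at or above the median of both holding lists. Absence on the other side was still judged on the full lists. A gap of at least 5 points gave 7805 higher and 8065 lower regions, and one of at least 20 gave 2108 and 1285, so the share called higher in 4S-A was 53.1% at 10 points, 49.2% at 5 and 62.1% at 20. That share was 60.3% with percentiles in the whole list and 49.2% with ranks of fold enrichment. Within 500 bp of a gene end lay 2.74% of regions held only by 4S-A, 2.85% of those held only by FL 3 and KO 3, 4.82% of those ranked higher and 4.24% of those ranked lower, and at equal list length the second of these within 1 kb was 6.11%. Of the 18 gene lists, 8 exceeded the share of all regions held only by 4S-A, against 5 with the nearest gene within 20 kb and 5 at equal length. Leaving out each library in turn gave 12740 to 17852 regions held only by 4S-A, 5371 to 10655 held only by the other side, 7640 to 10232 ranked higher and 7718 to 10383 ranked lower, since each library left out leaves fewer conditions to meet. For the Mx1-Cre set and the densest windows the alternatives were chosen after seeing the data: with all 8 lists cut to the shortest, 24.1% and 78.1% of one-sided regions were found in the Mx1-Cre set, and leaving out each library gave 9.29% to 17.6% and 32.0% to 54.0%, with 30 to 39 and 14 to 29 regions in the windows; where no value shows a cause, the cause was not tested.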
